A study of Mus musculus with 9 samples.

Results

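Counted processed pseudogenes are the subject of the values given here. They were all genes with the biotype processed pseudogene in GENCODE mouse release 21 (GRCm38) whose counts summed to 90 or more over 9 colon libraries, leaving out Gm43960. This rule took 78 of 9940 annotated processed pseudogenes, and 1332 others had 1 to 89 counts. The 78 genes, out of 22262 genes with a count, were thus selected on their summed counts over all libraries, which are given as a description with no test.

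RNA was sequenced from the upper colon of 9 wild-type (WT) mice, which were C57BL/6N females aged 12 months. From weaning, 4 of them (mice 1, 2, 3 and 5) had lived in the standard environment (WT_SE) and 5 (mice 1 to 5) in the enriched environment (WT_EE), which is labelled as enhanced environment and had larger cages with more mice in each, varied objects, tunnels and running wheels. Each cage held mice of 1 environment, so that cage and environment cannot be told apart. The libraries hold the 3′ ends of polyadenylated RNA. The deposited values are counts of unique molecular identifiers, which are meant to mark single molecules. Genes are compared by these counts, with no correction for the length of a transcript.

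A processed pseudogene is a copy of a messenger RNA that was reverse transcribed and inserted into the genome by the enzymes of a mobile element. It therefore lacks the introns of its parent gene and mostly lacks a promoter of its own. Genes that are strongly transcribed in the germ line, such as those of ribosomal proteins, have left many such copies in mammalian genomes. Because a copy and its parent can be almost equal in sequence, a short read from the parent's transcript can also match the pseudogene.

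Library totals were 295535 to 454043 counts, and 77 of the 78 pseudogenes had a count in each of the 9 libraries. All 8 epithelial markers, such as Epcam and Krt8, were counted in these libraries, as a colon label requires. Of all genes with a count, 489 had a median above 100 counts per library and 45 a median above 150, while the highest gene of a library had 1177 to 1393 counts. For some well-counted genes, counts hardly followed the library total. Between WT_EE mouse 2, the smallest library, and WT_EE mouse 1, the largest, Fau went from 108 to 113 and Gm9385 from 73 to 76. Rps12, in contrast, went from 122 to 196. Whether counts of this size are numbers of molecules was not tested. Ratios, normalised values and fold changes of such genes carry this limit. The libraries of WT_SE mice 1 and 3 have names that end in L3, whereas the names of the other 7 end in L2. No WT_EE library has the L3 ending, and only WT_SE mice 2 and 5 separate it from the environment, so values without the L3 libraries are given beside the results on the environment. The sources used here do not state how reads that match several genes, or reads on the other strand, were counted. For each value below, molecules from a pseudogene's own transcript cannot be told apart from molecules of its parent that were counted on it.

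The sequences below show how little separates these genes from their parents in the coding part, as the parents' reading frame places it. Each pair gives the 30 bases of the aligned coding stretch with the most differences, read from the GENCODE transcripts on GRCm38 and printed 5′ to 3′ along the transcript, with differing bases in capitals. The first pair is the copy with the fewest counts on its parent. Gm9385 (chr9:116040735-116040764, minus strand) differed from exon 4 of Rpl24 (chr16:55969617-55969646, plus strand) by 1 base here and in its whole length of 472 bases.
Gm9385: taggaaagcccagTgagagcaggctatcag
Rpl24: taggaaagcccagCgagagcaggctatcag
The second pair is the only copy that was higher in WT_EE at an unadjusted p under 0.05. Gm2830 (chr13:54499826-54499855, minus strand) differed from exon 3 of Rps24 (chr14:24492087-24492116, plus strand) by 3 bases.
Gm2830: aagaatgagcctaaaTGcagactCgcaaga
Rps24: aagaatgagcctaaaCAcagactGgcaaga
The third pair is the copy with the most counts. Gm8960 (chr10:115599472-115599501, minus strand) differed from exon 3 of Rps3a1 (chr3:86141244-86141273, minus strand) by 5 bases.
Gm8960: ATgacaaCatgtgctccatgAtcaagaaAt
Rps3a1: GGgacaaAatgtgctccatgGtcaagaaGt
The fourth pair is the copy that had no count in some libraries. Gm5526 (chr1:45857400-45857429, minus strand) differed from exon 5 of Myl6 (chr10:128492098-128492127, minus strand) by 1 base.
Gm5526: tgacaAaggaagaagtagagatgctagtgg
Myl6: tgacaGaggaagaagtagagatgctagtgg
The last sequence stands for the 14 copies with no difference from their parent over the aligned length. Rpl15-ps3 (chr9:22185610-22185639, minus strand) and exon 4 of Rpl15 (chr14:18269014-18269043, minus strand) shared the run below, and no base is in capitals.
Rpl15-ps3: cgcaatactctccagctccaccgttaccgc

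For each of the 78 pseudogenes a parent was found as the protein-coding gene with the best match of its transcripts. For 67 of the 78, this was a gene of a cytosolic ribosomal protein. These 67 copies held 22616 of the 25015 counts on the 78 pseudogenes. By subunit, 37 copies came from proteins of the large subunit, with 12500 counts, and 29 from proteins of the small subunit, with 9999 counts. The other 11 had diverse parents. Among them were Gm49138, a copy of the ribosomal scaffold gene Rack1, and Gm6477, a copy of Npm1, a nucleolar chaperone. Gm10250 matched Atp5h, a subunit of ATP synthase, Gm5526 matched the myosin light chain gene Myl6, and Gm6542 matched the proteasome subunit gene Psma4. Gm4076 matched mt-Nd5, a subunit of respiratory complex I that is encoded in mitochondrial DNA. Gstp-ps matched the glutathione transferase gene Gstp2, Gm6142 the tubulin cofactor gene Tbca, Gm6475 the adaptor gene Cd2ap, AC124513.1 the ribosome biogenesis gene Nsa2, and Gm11942 the gene Gm10073.

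Identity to the parent was 94.4% to 100%, with a median of 99.0%, and 76 of the 78 had at least 95%. The median number of differing or missing bases was 5, and in the last 100 aligned bases it was 1, with none in 33 pseudogenes. The longest run without a difference had a median of 221.5 bases. The 1315 pseudogenes with 1 to 89 counts and a parent had a median identity of 95.5%. Their parent was a ribosomal protein gene in 39.9% of the 1332, against 85.9% of the 78, and of the 1315 with a parent 53.6% had an identity of at least 95%, against 97.4%. No difference from the parent was found for 2.66% of these 1315 and for 17.9% of the 78. The pseudogenes with more counts were thus closer copies and more often of ribosomal protein genes. The median count sum of the parent was 879 for the 78 and 627 for the others.

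The 78 pseudogenes lay on 19 chromosomes, 77 had a single exon and Gm8960 had 2. Their length was 93 to 1936 bases, with a median of 479.5. For 46 no other gene was annotated at the position. An intron of a gene on the same strand held 13, among them Rps6-ps3 in Rab39, Gm11478 in Vmp1 and Gm6142 in Adcy9, and an intron of a gene on the other strand held 17. Among the pseudogenes with 1 to 89 counts an intron on the same strand held 19.3%, against 16.7% of the 78. Only Gm4149, a copy of Rpl37a, overlapped an exon on its own strand, that of Mir682.

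Together the 78 pseudogenes had 25015 counts, which is 0.743% of all counts and 72.4% of those on processed pseudogenes other than Gm43960. Their sums were 92 to 940, with a median of 249.5. The highest was Gm8960 (chr10:115599026-115600328), a copy of Rps3a1, a protein of the small ribosomal subunit. Its counts in WT_SE mice 1, 2, 3 and 5 were 103, 92, 93 and 125. In WT_EE mice 2 to 5 they were 79, 120, 86 and 116, and WT_EE mouse 1 had 1 count more than the highest WT_SE mouse. The groups overlapped, at 295 ± 39.8 CPM (normalised count-per-million, SD, n = 4) for WT_SE against 269 ± 5.11 CPM (SD, n = 5) for WT_EE. After these came Rpl14-ps1 with 867 counts, Rpl7a-ps7 and Gm4997 with 793 each, Rpl36-ps2 with 784, Gm9843 with 762, Gm5781 with 740, Rpl31-ps8 with 713, Gm9385 with 700 and Rps12-ps9 with 692. All 10 were copies of ribosomal protein genes, Gm4997 of Rps20, Gm9843 of Fau and Gm5781 of Rps15. Just inside the limit of 90 counts were Gm5526 with 92, Gm10154 with 93 and Gm4149 with 95, and just outside it were Rpl21-ps6 with 87, Gm2225 with 86 and Gm49594 with 83.

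Most pseudogenes had fewer counts than their parent. The ratio of pseudogene to parent counts had a median of 37.5%, and its middle values ran from 17.6% to 59.3%. These are ratios of deposited counts. For well-counted parents, such as Fau with 100 to 118 counts per library, they carry the limit given above. The lowest ratios were those of Gm10154 to Rpl34 (9.01%) and Gm6204 to Rps14 (9.13%). In contrast, 12 pseudogenes had more counts than their parent. The most extreme was Gm9385 (chr9:116040593-116041064). Its counts were 80, 74, 76 and 82 in WT_SE and 76, 73, 82, 85 and 72 in WT_EE. Its parent Rpl24, a protein of the large subunit, had 3 counts in all, 1 in each of WT_SE mice 1 and 2 and WT_EE mouse 1. Rpl24 was thus at the floor of 3 counts, below which no level is read, and no ratio is given for this pair.

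**Figure D1:**
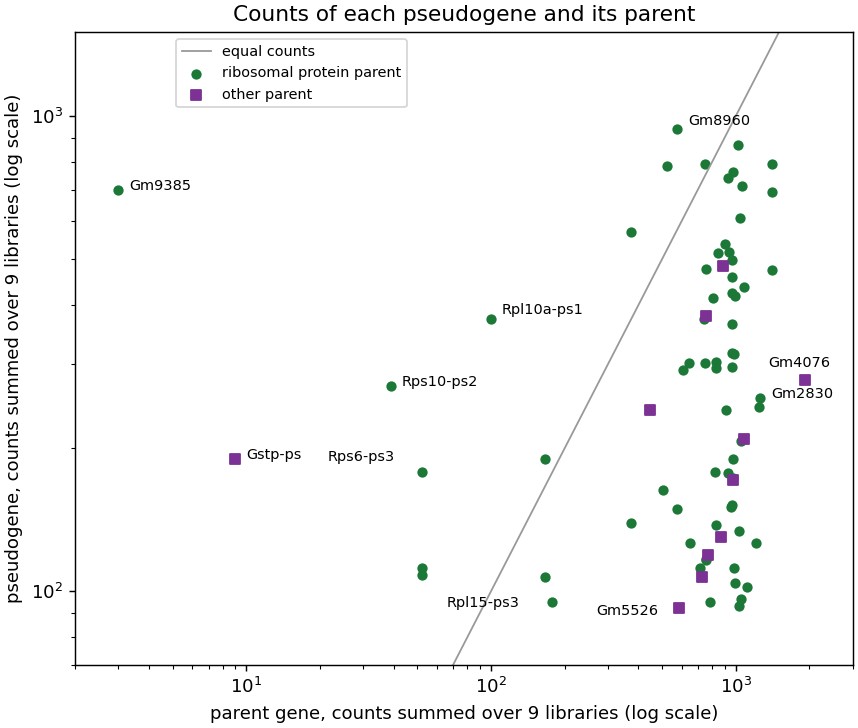
Counts of each of the 78 pseudogenes (vertical axis) against counts of its parent gene (horizontal axis), both summed over the 9 libraries on log scales. Points left of the grey line are the 12 pseudogenes with more counts than their parent, among them Gm8960 (940 against 577) and Gm9385 (700 against 3), and most other points lie at parent sums near the median of 879.

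Similar pairs were Rps10 and Rps6, both proteins of the small subunit. Rps10 had 39 counts, between 2 and 6 per library, whereas Rps10-ps2 had 270, with 52, 19, 39 and 26 in WT_SE and 40, 16, 29, 25 and 24 in WT_EE. Rps6 had 52 counts, and its copies Rps6-ps3, Rps6-ps1 and Rps6-ps4 had 178, 112 and 108. Thus 3 copies on 3 chromosomes (9, 15 and 2) each had more counts than the gene, and Rps6-ps4 was equal to it over all 750 aligned bases. Rpl10a had 100 counts and its identical copy Rpl10a-ps1 had 373. Gstp2 had 9 counts and Gstp-ps 190, between 9 and 30 per library.

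Among 79 ribosomal protein genes, 51 were parents of a counted pseudogene, with a median sum of 904 counts, and 28 were not, with a median of 991. Only 8 of the 79 had under 200 counts, and 7 of these 8 were parents (tied best matches included). In 11 of 63 distinct parents the counted copies together had more counts than the parent. Rpl17, a protein of the large subunit, had the most copies with 90 or more counts. These were Rpl17-ps9, Rpl17-ps5, Rpl17-ps3 and Rpl17-ps8, with 423, 364, 317 and 296 counts, 1400 in all, against 967 on Rpl17 itself. Each of these 4 copies differed from Rpl17 by 2 bases.

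The question of the study for these WT mice was which genes differ between EE and SE. All 78 pseudogenes passed the filter of 4 CPM in at least 1 library. With edgeR's quasi-likelihood test, 28 of the 78 were lower in WT_EE and 1 was higher at an unadjusted p under 0.05. Over all 17441 genes tested, 3.34% were lower and 4.31% higher, which is 7.65% in either direction. The log2 fold change (WT_EE against WT_SE) was negative for 71 of the 78, against 48.9% of all genes, and its median was −0.34, against 0.01 for all genes. After Benjamini-Hochberg adjustment over all genes, 1 pseudogene, Gm2830, had an adjusted p under 0.05, and 0.0401% of all genes (7) did. In whole tissue, fewer cells of a type and less RNA per cell cannot be told apart. Normalised values of the 2 environments did not overlap for 7 pseudogenes that were lower in WT_EE and 1 that was higher, against 1.2% and 1.38% of all genes.

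These lower values rested in large part on the L3 libraries. Without them, 3 pseudogenes were lower and 1 higher, against 1.5% and 2.47% of all genes, the median log2 fold change was −0.15 and 58 of 78 were negative, against 47.4% of all genes. Of the 28 pseudogenes lower with 9 libraries, 3 were lower without the L3 libraries. With only 1 L3 library left out, the count lower in WT_EE was 15 without WT_SE mouse 1 and 13 without WT_SE mouse 3. The shares of all genes lower in these fits are not given here. When the name ending was a covariate, 4 were lower, against 1.66% of all genes. For 54 of the 78, the library with the highest normalised value was WT_SE mouse 1 (19) or 3 (35). The share of all genes with their highest value in these libraries was not determined.

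**Figure D2:**
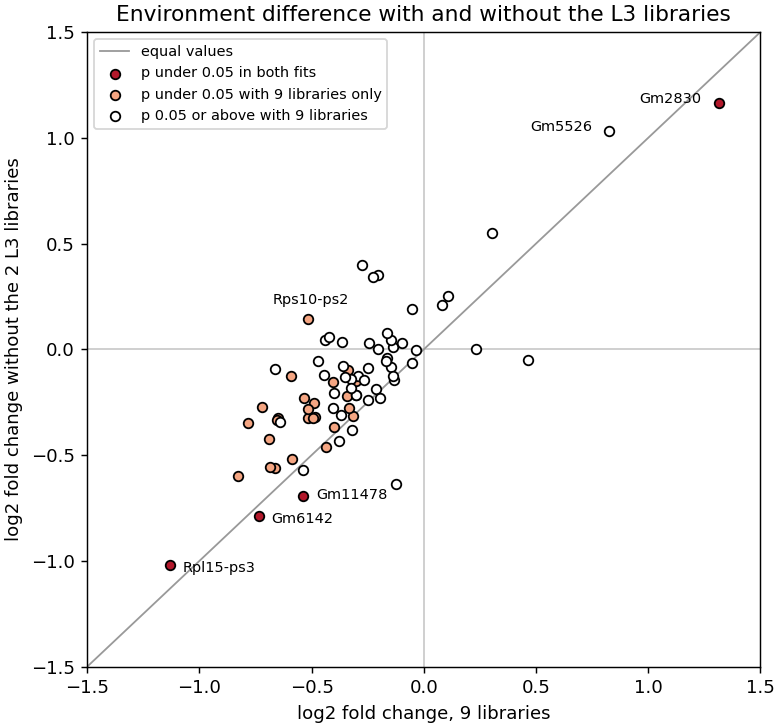
Log2 fold change (WT_EE against WT_SE) of each of the 78 pseudogenes with all 9 libraries (horizontal axis) and without the 2 L3 libraries (vertical axis), with the grey line at equal values. Most points lie above the line at the lower left, since the median moved from −0.34 to −0.15, and Gm2830, Rpl15-ps3, Gm6142 and Gm11478 had a p under 0.05 in both fits.

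The share of library counts on the 78 pseudogenes was as follows for each mouse. In WT_SE mice 1, 2, 3 and 5 it was 0.866%, 0.717%, 0.932% and 0.802%. In WT_EE mice 1 to 5 it was 0.707%, 0.680%, 0.681%, 0.691% and 0.660%. The groups did not overlap, the L3 libraries were highest, and WT_SE mouse 2 lay just above WT_EE mouse 1. The parents held 1.42% to 1.57% of counts in WT_SE and 1.41% to 1.58% in WT_EE, so that their groups overlapped over nearly the whole range. Per 100 parent counts, there were 58.7, 50.4, 59.3 and 51.1 pseudogene counts in WT_SE and 48.3, 48.1, 48.2, 43.7 and 43.8 in WT_EE. The 2 L3 libraries stood at the top, the 2 other WT_SE libraries came next, and the 5 WT_EE libraries were lowest. Pseudogenes with 1 to 89 counts held 0.277% to 0.352% in WT_SE and 0.250% to 0.293% in WT_EE, and the L3 libraries were again highest at 0.330% and 0.352%.

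**Figure D3:**
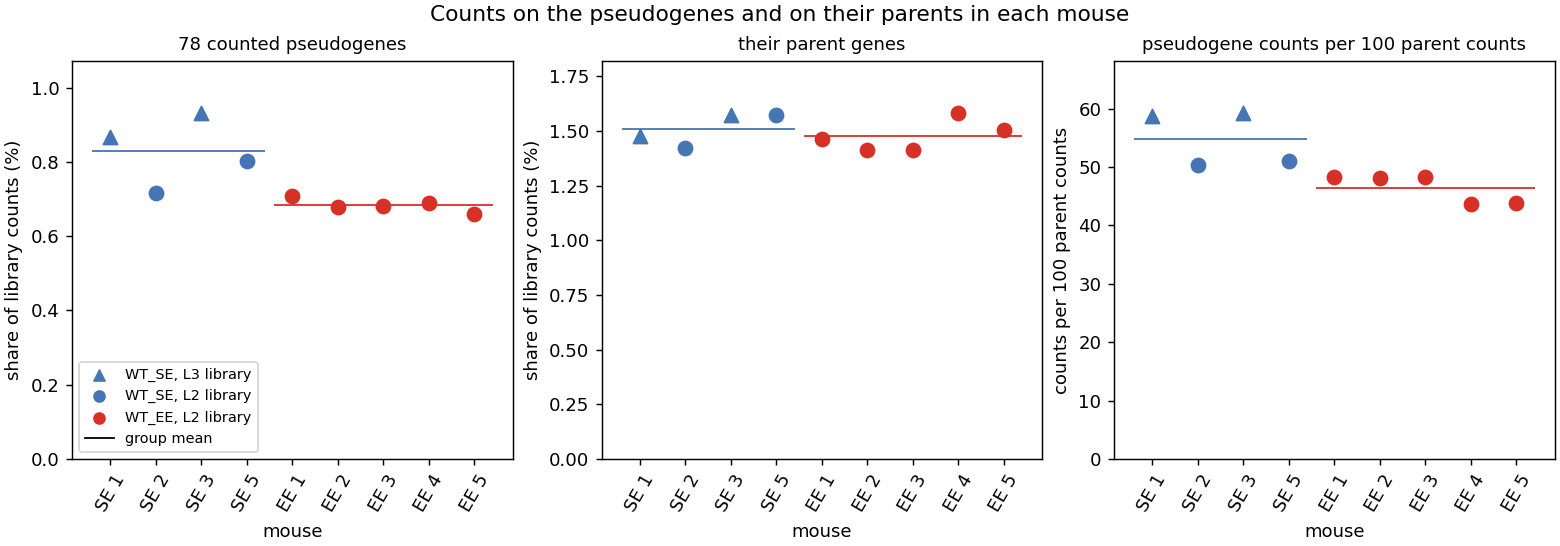
Share of library counts on the 78 pseudogenes (left), share on their parents (middle), and pseudogene counts per 100 parent counts (right) in each mouse, with group means as lines and L3 libraries as triangles. The left panel runs from 0.660% to 0.932% without overlap of the environments, the middle panel overlaps at 1.41% to 1.58%, and on the right the L3 libraries stand at 58.7 and 59.3 above all others.

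Among the cell type markers, the summed level of 4 fat markers was 200 and 624 CPM in the L3 libraries, 19.1 and 33.4 CPM in the other WT_SE libraries and 6.94 to 280 CPM in WT_EE, and none of the 4 was at 0 over all libraries. The 8 epithelial markers summed to 3244 to 4217 CPM in WT_SE and 3045 to 3816 CPM in WT_EE. The smooth muscle markers summed to 989 to 1389 CPM in WT_SE. In WT_EE mice 1 to 5 they summed to 1086, 1956, 999, 2026 and 1342 CPM. Lymphoid markers summed to at most 27.8 CPM in any library, and Cd79a had no count. In each of these lists the L2 libraries overlapped the L3 libraries, and the part of these markers in the pseudogene values was not tested.

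Of 63 parents tested, 2 were higher in WT_EE and 1 was lower at an unadjusted p under 0.05, against 4.31% and 3.34% of all genes. Their median log2 fold change was −0.06, or −0.03 without the L3 libraries. The higher ones were Rps3a1 (0.50, SE 0.16) and Myl6 (0.54, SE 0.16), and the lower one was Rpl14 (−0.30). None of them passed the adjustment, with adjusted p of 0.276, 0.222 and 0.641 (edgeR, Benjamini-Hochberg). Ribosomal protein genes without a counted copy had a median of −0.05. A pseudogene had a lower log2 fold change than its own parent in 66 of 76 pairs with both values, and in 56 of 76 without the L3 libraries. The ratio of pseudogene to parent counts was lower in WT_EE for 65 of 78, and for 55 without the L3 libraries. Other pairs of genes were not compared. Whether well-counted parents show smaller differences because their counts hardly follow the library total was not tested. Of the 1332 processed pseudogenes with 1 to 89 counts, 489 passed the filter and were tested. Their median was −0.23, with 21 lower and 3 higher, against 3.34% and 4.31% of all genes. At such low counts a gene can pass the filter through the libraries where it is high. Without the L3 libraries the filter was applied again and left another set of 435. In that set the median was 0.12, with 4 lower and 1 higher, against 1.5% and 2.47% of all genes. The 2 medians thus do not cover the same genes.

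**Figure D4:**
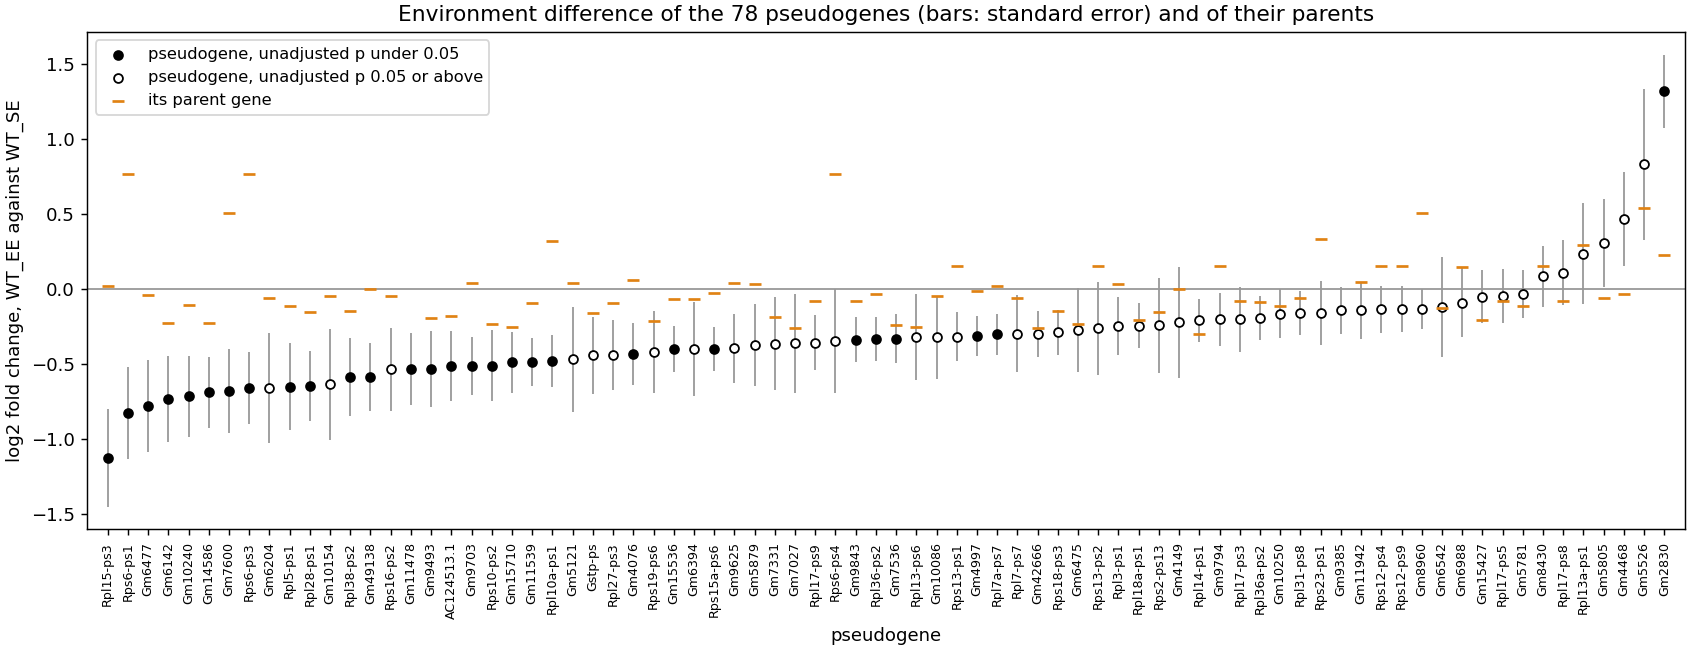
Log2 fold change (WT_EE against WT_SE) of the 78 pseudogenes in rising order, with standard errors as bars, filled where the unadjusted edgeR p was under 0.05, and the value of the parent as an orange dash for the 76 with a tested parent. The pseudogenes run from −1.13 for Rpl15-ps3 to 1.32 for Gm2830, whereas most parents lie near their median of −0.06.

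The counts by class below stand beside shares of 3.34% lower and 4.31% higher over all genes tested. Without the L3 libraries these shares were 1.5% and 2.47%. By class, 13 of 37 copies of large-subunit genes were lower in WT_EE and none higher, with a median of −0.32. Without the L3 libraries 2 of these copies were lower, with a median of −0.18. Of 29 copies of small-subunit genes, 10 were lower and 1 higher, with a median of −0.34, and without the L3 libraries none was lower and 1 was higher, with a median of −0.13. Of the 11 copies of other genes, 5 were lower. These were Gm49138 (Rack1), Gm6477 (Npm1), Gm6142 (Tbca), AC124513.1 (Nsa2) and Gm4076 (mt-Nd5), with log2 fold changes of −0.59, −0.78, −0.74, −0.52 and −0.43. With the L3 libraries left out, these were −0.52, −0.35, −0.79, −0.28 and −0.46, and only Gm6142 of the 5 had an unadjusted p under 0.05. The 14 copies with no difference from the parent had 7 lower and a median of −0.38, and the 64 others had 21 lower and a median of −0.32. In the fit without the L3 libraries, 1 of the 14 and 2 of the 64 were lower, with medians of −0.19 and −0.14. Of pseudogenes with sums from 90 to under 200, from 200 to under 400, and of 400 or more, 11 of 34, 9 of 20 and 8 of 24 were lower, against 2.89%, 4.49% and 6.43% of all genes with sums in these ranges (the last up to 1000). In the same ranges 3, 0 and 0 pseudogenes were lower without the L3 libraries, against 1.5% of all genes of any sum.

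The pseudogene with the largest difference was Gm2830 (ENSMUSG00000086567, chr13:54499705-54500089, no other gene at its position). It is a copy of Rps24, a protein of the small subunit, from which it differed by 15 bases. Its counts in WT_SE were 11, 21, 13 and 12, and in WT_EE they were 41, 28, 34, 43 and 52. Each WT_EE mouse was above each WT_SE mouse. The WT_SE mice had 41.0 ± 13.3 CPM (SD, n = 4) and the WT_EE mice 103 ± 23.8 CPM (SD, n = 5). The log2 fold change was 1.32 (SE 0.24), with an adjusted p of 0.0249 (edgeR, Benjamini-Hochberg). The exact permutation test, two-sided, gave p = 0.0159 (n = 4 and 5), and the smallest p it allows here is 0.00794. Without the L3 libraries the log2 fold change was 1.17. Rps24 itself had 124, 114, 124 and 115 counts in WT_SE and 165, 113, 155, 147 and 199 in WT_EE, with a log2 fold change of 0.22 (SE 0.14, unadjusted p = 0.114 by edgeR), so that its groups overlapped.

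**Figure D5:**
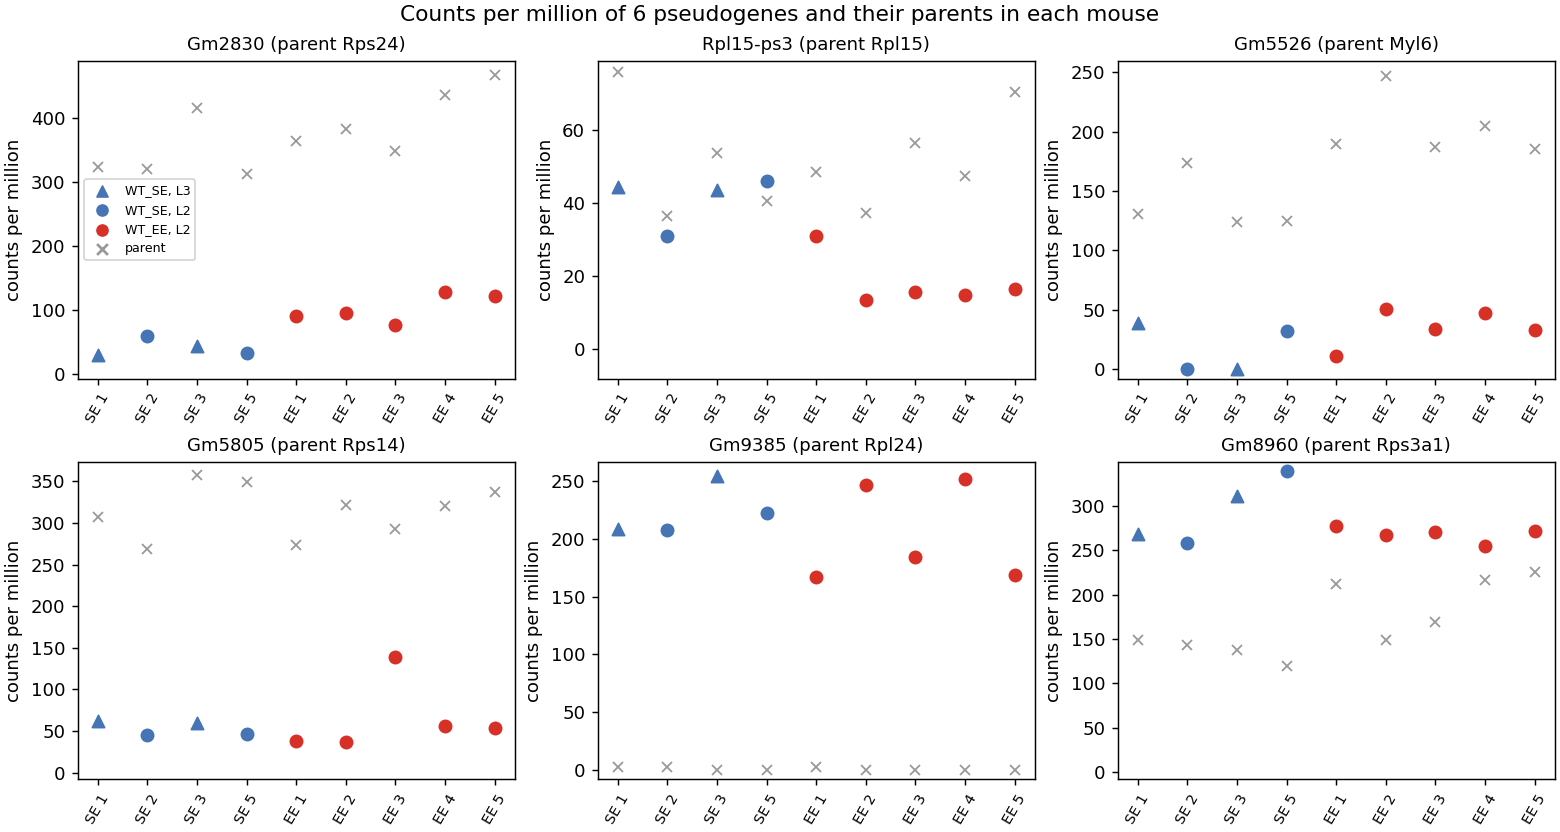
CPM of 6 pseudogenes (coloured) and their parents (grey crosses) in each mouse, with L3 libraries as triangles. Gm2830 is higher in each WT_EE mouse, Rpl15-ps3 is lower in 4 of 5 WT_EE mice and close to WT_SE mouse 2 in the other, Gm5526 is at 0 in WT_SE mice 2 and 3, Gm5805 stands out in WT_EE mouse 3, and Gm9385 and Gm8960 lie above their parents in each mouse.

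In the other direction the smallest p was that of Rpl15-ps3 (chr9:22185607-22186221), an identical copy of Rpl15, a protein of the large subunit. Its counts were 17, 11, 13 and 17 in WT_SE and 14, 4, 7, 5 and 7 in WT_EE. In CPM, this was 41.4 ± 7.24 (SD, n = 4) against 18.2 ± 6.76 (SD, n = 5), a log2 fold change of −1.13 (SE 0.33, unadjusted p = 0.00136, adjusted p = 0.212 by edgeR with Benjamini-Hochberg). The lowest WT_SE library (mouse 2, 30.6 CPM) and the highest WT_EE library (mouse 1, 30.2 CPM) were almost equal. Without the L3 libraries its value was −1.02. The counts of Rpl15 were 29, 13, 16 and 15 in WT_SE and 22, 11, 25, 16 and 30 in WT_EE, with a log2 fold change of 0.02.

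Among the next by p, none of which passed the adjustment, were Gm11539, Rpl10a-ps1 and Rpl28-ps1. Rpl10a-ps1 (chr1:64993951-64994604) had 60, 43, 40 and 44 counts in WT_SE and 39, 28, 44, 35 and 40 in WT_EE. Its normalised values did not overlap, at 133 ± 17.3 CPM (SD, n = 4) against 95.8 ± 8.71 CPM (SD, n = 5), a log2 fold change of −0.48. Gm11539, a copy of Rpl18, had 84, 55, 66 and 65 counts against 63, 53, 63, 39 and 50, a log2 fold change of −0.49 with overlapping groups. Rpl28-ps1 had 49, 27, 43 and 39 against 32, 9, 39, 18 and 46, a log2 fold change of −0.65 with overlap. Without the L3 libraries these 3 had log2 fold changes of −0.32, −0.25 and −0.32 in the order Rpl10a-ps1, Gm11539 and Rpl28-ps1, and none had an unadjusted p under 0.05.

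Both other pseudogenes that were lower with and without the L3 libraries lie in an intron on their own strand. Gm11478, whose best match was tied between Rpl13a and Gm45713, had 27, 25, 14 and 31 counts in WT_SE and 26, 11, 21, 18 and 17 in WT_EE, with a log2 fold change of −0.54 and −0.69 without the L3 libraries. Gm6142 had 19, 17, 11 and 18 against 14, 6, 11, 13 and 10, with a log2 fold change of −0.74 and −0.79 without the L3 libraries. Neither passed the adjustment, with adjusted p = 0.575 and adjusted p = 0.465 by edgeR with Benjamini-Hochberg over 9 libraries.

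For copies of 1 parent the values were as follows. The Rps6 copies Rps6-ps3 and Rps6-ps1 had log2 fold changes of −0.66 and −0.83 with an unadjusted edgeR p under 0.05, and the identical copy Rps6-ps4 had −0.35 (SE 0.35). Without the L3 libraries Rps6-ps3, Rps6-ps1 and Rps6-ps4 had −0.56, −0.60 and −0.13, and none had an unadjusted p under 0.05. Rps6 itself had 5, 3, 5 and 2 counts in WT_SE and 17, 1, 2, 4 and 13 in WT_EE. The 4 Rpl17 copies had −0.36, −0.05, −0.20 and 0.11 in the order Rpl17-ps9, Rpl17-ps5, Rpl17-ps3 and Rpl17-ps8, and none had an unadjusted p under 0.05. Rpl17-ps3 turned to 0.35 without the L3 libraries. Of the Rps3a1 copies, Gm8960 had −0.13 (SE 0.13) and Gm7600 −0.68 (SE 0.28), or −0.14 and −0.56 without the L3 libraries, while Rps3a1 was at 57, 51, 41 and 44 counts in WT_SE and 96, 44, 75, 73 and 96 in WT_EE. Differences between copies of 1 parent were not tested.

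The spread of the counts over all libraries was set beside counting error. Expected counts came from the normalised library totals over both environments, so differences between environments and name endings are part of the spread. The chi-square per degree of freedom of the counts is near 1 when only counting error is present. For the 78 it had a median of 2.06 and ran from 0.351 to 6.70. Over 8109 genes with count sums in the same range the median was 1.35, and 26.2% were above 2, against 51.3% of the 78. A high value can also come from counts that do not follow the library totals. Gm9385, for example, had 2.65 with 72 to 85 counts per library. The lowest values were those of Rpl13-ps6 (9 to 16 counts), Rpl36a-ps2 (34 to 71 counts) and Rps13-ps2 (5 to 15 counts). The highest values were those of Gm2830 and Gm5805.

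Gm5805 (chr15:81972390-81972845), a copy of Rps14, owed its spread to 1 mouse. It had 24, 16, 18 and 17 counts in WT_SE and 17, 11, 62, 19 and 23 in WT_EE. WT_EE mouse 3 was thus far above all 8 others, and the environments otherwise overlapped. Its log2 fold change was 0.31 (SE 0.30, unadjusted p = 0.309 by edgeR), and −0.19 without that mouse. Rps14 had 130 counts in that mouse, within its range of 95 to 144. Gm6204, another copy of Rps14, had 3 counts there, its lowest.

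Gm5526 (chr1:45857332-45857754) was the only one of the 78 with libraries at 0. It had 15, 0, 0 and 12 counts in WT_SE and 5, 15, 15, 16 and 14 in WT_EE. WT_SE mice 2 and 3 thus had none, which at these totals allows up to 3 counts each, whereas the other WT_SE mice were within the WT_EE range. Its log2 fold change of 0.83 (SE 0.50, unadjusted p = 0.107 by edgeR) did not pass the test. Without WT_SE mouse 1, WT_SE mouse 5 or WT_EE mouse 1 it was 1.52, 1.24 and 1.09, each with an unadjusted p under 0.05. Without WT_SE mouse 2 or 3, where it was at 0, the log2 fold change was 0.41 and 0.48, and the test was not passed. With limma-voom it was 1.93 (unadjusted p = 0.0168). Myl6 had 50, 62, 37 and 46 counts in WT_SE and 86, 73, 83, 69 and 79 in WT_EE, so that it was well counted in the mice where its copy was at 0.

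Over the 9 mice, pseudogenes followed their parents only loosely. The Pearson correlation of log2(normalised CPM + 1) between a pseudogene and its parent had a median of 0.34 over 78 pairs, from −0.77 to 0.86, and 59 were positive. Pairs share libraries, and some share a parent, so this is a description. With the parents of other pseudogenes the median was 0.13, and between pairs of pseudogenes it was 0.34. With the sum of the other 77 pseudogenes the median was 0.60, and 72 of 78 were positive. The exceptions with the lowest values were Gm2830 (−0.79), Gm4468 (−0.75) and Rpl13a-ps1 (−0.49). Without the L3 libraries the median correlation with the own parent was 0.18.

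The closest single pairs were Rpl28-ps1 with Rpl28, Gm9493 with Rps7 and Gm5781 with Rps15, with Pearson r of 0.86, 0.84 and 0.83. The exact permutation p over 9 mice, not adjusted for the 78 pairs, was 0.0024, 0.0025 and 0.0028. Spearman's rho was 0.75, 0.82 and 0.92, with an exact permutation p of 0.0255, 0.0108 and 0.0013. After leaving out the 2 mice farthest from the median of the parent, r was 0.45, 0.84 and 0.83, so that the first relation rested in part on those mice. The counts of Gm5781 and Rps15 were 73 to 93 and 88 to 123 per library. Both values of a pair are divided by the same library total, and the part of these totals in r was not tested. The most negative pairs were Rps13-ps2 with Rps13, Gm7600 with Rps3a1 and Gm8960 with Rps3a1, with r of −0.77, −0.73 and −0.58. Their exact permutation p was 0.012, 0.0241 and 0.11, rho was −0.65, −0.72 and −0.48 with an exact permutation p of 0.0666, 0.0369 and 0.194, and without the 2 farthest mice r was −0.31, −0.35 and −0.60. The first and second of these were thus weaker without those mice. As for all pairs, r runs over both environments, so that group differences are part of it. Rps3a1 had a log2 fold change of 0.50, against −0.68 for Gm7600 and −0.13 for Gm8960. The pairs named here were picked as the extremes of r, so their p are descriptions. Correlation within an environment was not tested.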

How the data were processed

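RNA of 9 mouse colons was sequenced with QuantSeq 3′ libraries. The authors aligned the reads and deposited whole-number UMI counts per gene and library, without normalization. The submitters' processing notes name fastp 0.20.0, STAR 2.7.0f, featureCounts 1.6.0, Subread, UMI-tools and GRCm38.p6, and the paper's text names another STAR version. How multimapping reads and strand were handled is not given in the sources used here.

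Genes that reached 4 CPM in any library were tested in R 4.3.3 with edgeR 4.0.16 (TMM normalization, quasi-likelihood F test, environment as the only term), and p-values were adjusted by Benjamini-Hochberg over all 17441 genes. The common biological coefficient of variation was 15.1%. Replicates are separate mice, and no 2 libraries of a group were alike within counting error. Parents were found with BLAST+ 2.17.0 (blastn) against the protein-coding transcripts of GENCODE release 21, as the gene of the best same-strand hit over at least 50% of the pseudogene. For 4 pseudogenes tied genes were summed as 1 parent, a choice made after seeing the data, and their fold change is that of the first gene. Ratios by group used a pseudocount of 0.5. Exact permutation tests (two-sided) compared single values, and the chi-square compared counts with those expected from normalised library totals. Counting intervals and floors cover counting error only. The fit was checked on simulated counts.

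The members, lists and tests were chosen with earlier results of these data known. Named pseudogenes were the 10 with the most counts, in each direction up to 5 with the lowest p under 0.05, the 3 highest and 3 lowest by ratio to the parent, chi-square and correlation, the 3 on either side of the limit of 90 counts, their parents, and parents with 3 or more copies. Some of the pseudogenes and parents under this rule are not reported here. Pseudogenes outside this rule, such as Gm11478, Gm6142 and those of the smaller classes, were chosen after their values were seen. Alternatives were other normalizations, filters and tests (DESeq2 1.42.0, limma-voom in limma 3.58.1), the mouse number as a block, the name ending as a covariate or without the L3 libraries, each mouse left out, and other count limits. The library total as a covariate, the same 8 mice without the block, and the correlation without the L3 libraries were added after seeing the data. Python 3.11.15, numpy 2.4.6, pandas 2.3.3, scipy 1.17.1 and matplotlib 3.10.9 were used.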

Additional observations from a re-analysis of the deposited data

Results flagged for a closer look

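In 8 of 76 groups examined, 1 mouse lay apart from the others of its environment by Dixon's criterion, where chance gives about 1 in 20 groups (3.8 of 76). The flagged pseudogenes are all named ones, and some named ones were picked for extreme values in these data. The rate of 1 in 20 is thus only a rough guide. Values are normalised CPM, and with 4 or 5 mice per group and counts this low each is given with its counts.

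Gm5805 was at 136 CPM (62 counts) in WT_EE mouse 3, and at 36.7 to 58.8 CPM (11 to 23 counts) in the other WT_EE mice. Rpl17-ps9 was at 223 CPM (66 counts) in WT_SE mouse 3, an L3 library, and at 112 to 128 CPM in the other WT_SE mice. Rpl36a-ps2 was lowest in WT_EE mouse 2, with 119 CPM (34 counts) against 145 to 153 CPM.

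Rps6-ps1 stood apart in both groups, lowest in WT_SE mouse 2 with 25.1 CPM (9 counts, others 50.7 to 52.2 CPM) and highest in WT_EE mouse 4 with 37.1 CPM (12 counts, others 19.4 to 24.4 CPM). Rpl15-ps3 did so too, lowest in WT_SE mouse 2 with 30.6 CPM (11 counts, others 44.0 to 46.5 CPM) and highest in WT_EE mouse 1 with 30.2 CPM (14 counts, others 13.9 to 16.2 CPM). Rps13-ps2 was lowest in WT_EE mouse 4 with 15.5 CPM (5 counts, others 30.1 to 32.8 CPM). Over all libraries, Rpl36a-ps2 and Rps13-ps2 had a chi-square per degree of freedom of only 0.551 and 0.566, so their spread did not exceed counting error.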

How the results depend on the processing

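With other normalizations, filters and tests, 19 to 34 pseudogenes were lower in WT_EE (28 as reported), and the median log2 fold change stayed negative in each alternative, at −0.40 to −0.15. The number of pseudogenes with an unadjusted p under 0.05 in either direction, 29 as reported, was 4 without both L3 libraries (3 lower) and 5 with the ending as a covariate (4 lower). Over all genes it was 1334 as reported, 680 and 688 in these fits, 643 with DESeq2 and 833 with at least 10 counts in at least 4 libraries. The last filter tests another set of genes, so 833 and 1334 are not parts of the same number. Each mouse left out in turn gave 14 to 33 pseudogenes in either direction and 13 to 31 lower, lowest without WT_SE mouse 3. With a limit of 180 counts for membership, 19 of a smaller set of pseudogenes had an unadjusted p under 0.05 in either direction. Of these only Gm2830 was higher in WT_EE. Over all genes, the share in either direction was 7.65%. Mouse numbers did not pair the samples, since deviations of mice with the same number correlated at −0.02 to 0.08. The replicate block over mice 1, 2, 3 and 5 gave 27 lower, against 21 for the same 8 mice without it.

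Of 756 values of named pseudogenes under the alternatives, 652 kept direction and side of the threshold, 66 were no longer past it (12 without the L3 libraries), 17 newly passed it and 21 changed sign. Of the latter only Rps10-ps2 was past the threshold as reported, and it turned from −0.51 to 0.14 without the L3 libraries and 0.13 with the ending as a covariate. In these 2 fits Rpl17-ps3 turned to 0.35 and 0.34, Gm4149 to 0.34 and 0.33, and Rps12-ps9 to 0.012 and 0.0015. With the library total as a covariate Gm5781, Rpl17-ps5 and Gm9385 turned to 0.12, 0.048 and 0.0018. With 1 mouse left out, Gm5781 ran from −0.18 to 0.073, Rpl17-ps5 from −0.15 to 0.041, Rpl17-ps3 from −0.41 to 0.024, Rpl17-ps8 from −0.014 to 0.31, Gm5805 from −0.19 to 0.48 and Gm4149 from −0.54 to 0.085. The medians of ratio, correlation and share moved by less than their spread. At 7 to 20 counts per library, as for Rps6-ps1, counting error limits what single pseudogenes can show.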
